A study of Homo sapiens with 6 samples.

Results

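The genes described here encode the proteins that hold epithelial cells together: claudins, occludin and their scaffolds (tight junctions), cadherins, catenins and nectins (adherens junctions), and desmogleins, desmocollins, plakophilins and desmoplakin (desmosomes). They were chosen by gene symbol, as the numbered claudins and cadherins, the desmosomal families and a fixed set of scaffold, polarity, catenin and nectin genes together with EPCAM. A probe set named for a single such gene was found for 71 genes, out of 19775 genes that the array measured in this way, and the 71 genes had 153 probe sets. Claudins made up 20 of them, other tight junction proteins 8, polarity proteins 3, cadherins 21, catenins, nectins and EPCAM 6, and desmosomal proteins 13. Genes of the same description that were not analysed here include CDH4, CDH13, CLDN24, CLDN25, CLDN34 and F11R, and also CLDN22 and CTNND1, which shared their probe sets with other genes.

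RNA came from Caco2, an established human colon cancer cell line, and was hybridised to 6 Affymetrix HG U133 Plus 2.0 arrays. The parental group (3 arrays) was sensitive to methotrexate (MTX), an antifolate drug, and the resistant group (3 arrays) was a derivative of the same line that withstood 10 µM MTX and had been obtained by exposure to rising drug concentrations. The resistant line was grown without glycine, hypoxanthine and thymidine in medium with dialyzed serum, while parental cells were kept in Ham's F12 with fetal bovine serum, so resistance and medium cannot be told apart. No source states whether the resistant line was a single clone, or whether the triplicates were grown as independent cultures. All p-values given here therefore reflect the scatter among these 6 samples alone, part or all of which may be technical, and the small number of arrays limits the precision.

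Tight junctions seal the space between neighbouring epithelial cells. Claudins form the strands of the seal, and different claudins make it tighter or open it to ions and water, while scaffold proteins such as ZO-1 (TJP1) anchor the strands to actin. E-cadherin (CDH1) and its catenins build the adherens junction underneath, desmosomes tie the keratin filaments of neighbouring cells together, and the PAR and Crumbs proteins place these structures at the apical side. Caco2 monolayers are widely used as a model of the intestinal barrier because they form such junctions in culture.

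Values are multiples of the array median, and changes are given as the log2 of resistant over parental with the standard error (SE) from limma. Levels of different genes cannot be compared on this scale, since each probe set has its own affinity. For each gene the probe set with the highest mean signal was used, and it was tested if that mean over the 6 arrays was no lower than the array median. Parental array 3 stood apart: its correlation with parental arrays 1 and 2 was 0.949 and 0.946, while those 2 arrays correlated at 0.966 and the resistant arrays at 0.968 to 0.971 with each other. It was also closer to the resistant arrays (0.935 to 0.939) than parental arrays 1 and 2 were (0.914 to 0.929). The called genes and the counts of calls are therefore also given without it.

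Among the 71 junction genes, 36 were bright enough to be tested. Resistant cells had higher levels of CLDN2 and of the desmosomal cadherin DSG2, and lower levels of the scaffold TJP1 and of the polarity gene PARD6B (limma, adjusted p below 0.05). The other 32 tested genes did not pass. A share of 11.1% of the tested junction genes was thus called, against 12.4% of all 11849 tested genes, so the count is near the background. Higher calls were made for 7.37% of all tested genes and lower calls for 5.05%. CLDN2 was the only junction gene at least 2-fold higher and PARD6B the only one at least 2-fold lower at this threshold, where 3.37% and 2.17% of all genes met the same rule. At an unadjusted p below 0.05 there were 11 junction genes (30.6%), against 30.8% of all tested genes.

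The typical change was small. The median over the 36 tested junction genes was -0.09 on the log2 scale, against 0.02 over all tested genes, and the median absolute change was 0.28 against 0.30. A change within 0.5 log2 units of zero was measured for 25 of the 36 genes (69.4%, against 71.2% of all genes). In 12 genes (33.3%) the resistant and parental arrays did not overlap, 6 with higher and 6 with lower resistant values, where 35.5% of all tested genes showed such a separation.

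**Figure D1:**
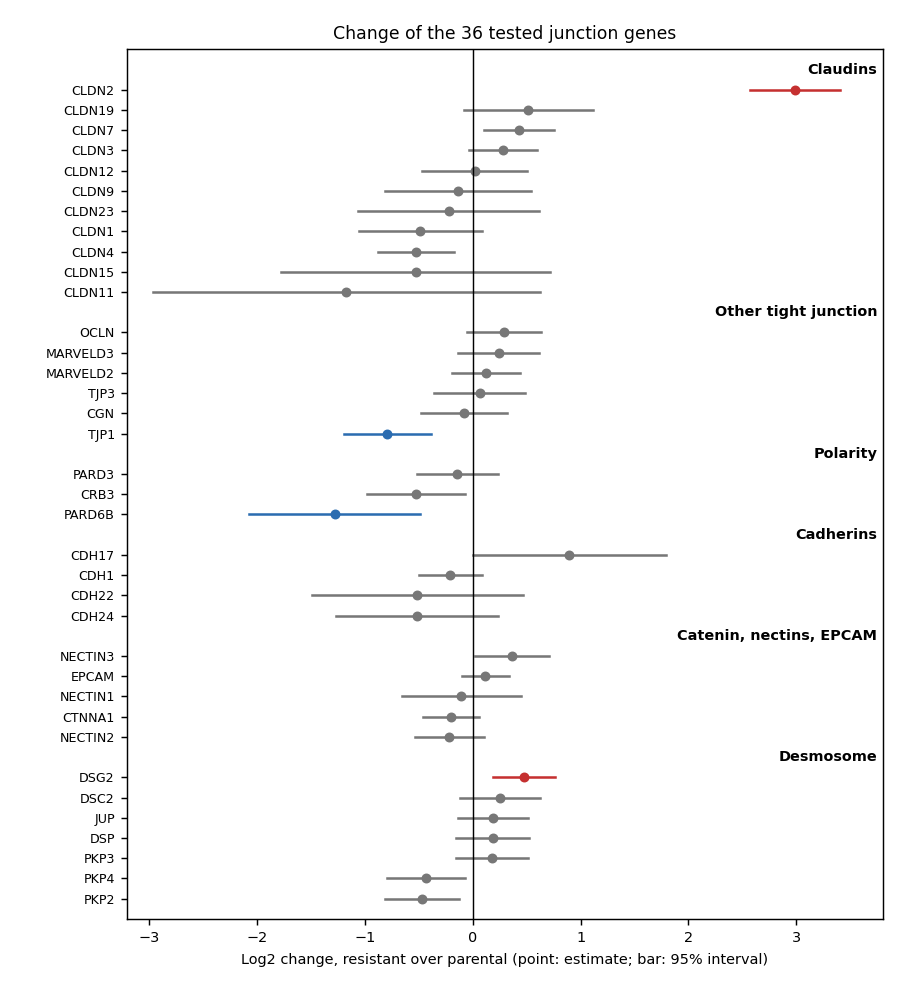
Log2 change of each of the 36 tested junction genes (resistant over parental, 3 arrays each), with the 95% interval from limma, arranged by class, with red for higher and blue for lower at an adjusted p below 0.05 and grey for the rest. CLDN2 lies at 2.99, far to the right of all other junction genes, while 25 of the 36 lie within 0.5 of zero.

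CLDN2 encodes claudin-2, which forms pores for cations and water and is associated with leaky epithelia. Its only probe set read 4.91, 4.11 and 6.30 times the array median on the parental arrays and 38.1, 36.8 and 45.1 on the resistant arrays. Every resistant array was far above every parental one. The increase was 2.99 ± 0.19 on the log2 scale, a 7.93-fold rise with a 95% interval of 5.95 to 10.56 (limma, adjusted p = 1.76e-05). Only 54 of the 11849 tested genes (0.456%) had a larger increase. The result held under 17 of 17 alternative settings, with changes between 2.84 and 3.15 and a highest adjusted p of 0.0365. Without parental array 3 the increase was 3.15.

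CLDN2 is on the X chromosome and has 2 RefSeq start sites with an entry in the promoter table (GRCh38.p14). Because it was the strongest change of the group, the 250 bases before each start are shown here, 5′ to 3′. The windows were searched on both strands for the letters CACCTG, which form the E-box bound by SNAI and ZEB repressors, for GGGCGG, known as the GC box, for TATAAA, known as the TATA box, and for TTTATNG, bound by CDX factors. Capitals mark matches, and the letters of the TATA box and of the CDX site read on the other strand can overlap. Neither CLDN2 window held a match, which says only that these letters are not in these windows. Their GC content was 46% and 48.8%, against a median of 58% over all promoter windows.
CLDN2 upstream start, chrX:106899914-106900163, plus strand: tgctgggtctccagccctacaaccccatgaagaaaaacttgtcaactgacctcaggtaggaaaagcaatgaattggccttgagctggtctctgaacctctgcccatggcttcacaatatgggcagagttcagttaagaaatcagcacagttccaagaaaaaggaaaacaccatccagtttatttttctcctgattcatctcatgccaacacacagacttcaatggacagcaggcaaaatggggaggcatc
CLDN2 downstream start, chrX:106918110-106918359, plus strand: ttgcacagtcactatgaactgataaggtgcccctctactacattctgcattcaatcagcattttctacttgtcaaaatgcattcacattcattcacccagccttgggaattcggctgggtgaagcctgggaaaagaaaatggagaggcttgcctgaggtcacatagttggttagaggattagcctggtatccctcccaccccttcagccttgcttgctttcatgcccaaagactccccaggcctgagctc

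The other 10 tested claudins did not pass the test, with changes between -1.17 and 0.52. CLDN7, the claudin with the brightest probe set, read 75.7, 65.5 and 54.3 on the parental and 85.8, 78.9 and 96.3 on the resistant arrays. All resistant values lay above all parental ones, but the difference of 0.43 ± 0.15 had an adjusted p of 0.0936 in limma. The opposite arrangement was seen for CLDN4, a barrier-forming claudin, with 34.8, 29.0 and 34.1 against 21.5, 20.0 and 27.1, a difference of -0.52 ± 0.16 (limma, adjusted p = 0.0644). Among the 11 tested claudins, CLDN2, CLDN4 and CLDN7 were the 3 without overlap between the groups. Over all tested genes 35.5% showed such a separation.

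In CLDN1 and CLDN15 parental array 3 lay far below the other parental arrays. CLDN1, another sealing claudin, read 34.6, 37.9 and 17.7 on the parental and 20.5, 21.1 and 19.6 on the resistant arrays, so parental array 3 lay below all resistant arrays. Its difference of -0.48 ± 0.25 became -0.83 ± 0.12 without that array (limma, adjusted p = 0.00053). CLDN15, a pore-forming claudin of the intestine, read 5.68, 6.77 and 1.44 against 1.53, 2.75 and 4.4, and its difference was -0.53 ± 0.56, or -1.23 without parental array 3 (adjusted p = 0.0262).

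CLDN3 differed by 0.28 ± 0.14, with 39.2, 39.2 and 48.5 on the parental and 48.1, 48.4 and 57.4 on the resistant arrays. Here the highest parental value, again that of array 3, lay just above the lower resistant values. CLDN9, CLDN12, CLDN19 and CLDN23 differed by -0.14, 0.02, 0.52 and -0.22, none of them past the test. CLDN11 had the most negative difference of the claudins, -1.17 ± 0.80, but its mean was 1.26 in parental and 0.760 in resistant cells, so it was tested only through its parental values. The 9 claudins below the array median on average were CLDN5, CLDN6, CLDN8, CLDN10, CLDN14, CLDN16, CLDN17, CLDN18 and CLDN20, and no array read more than 1.28 for any of them.

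**Figure D2:**
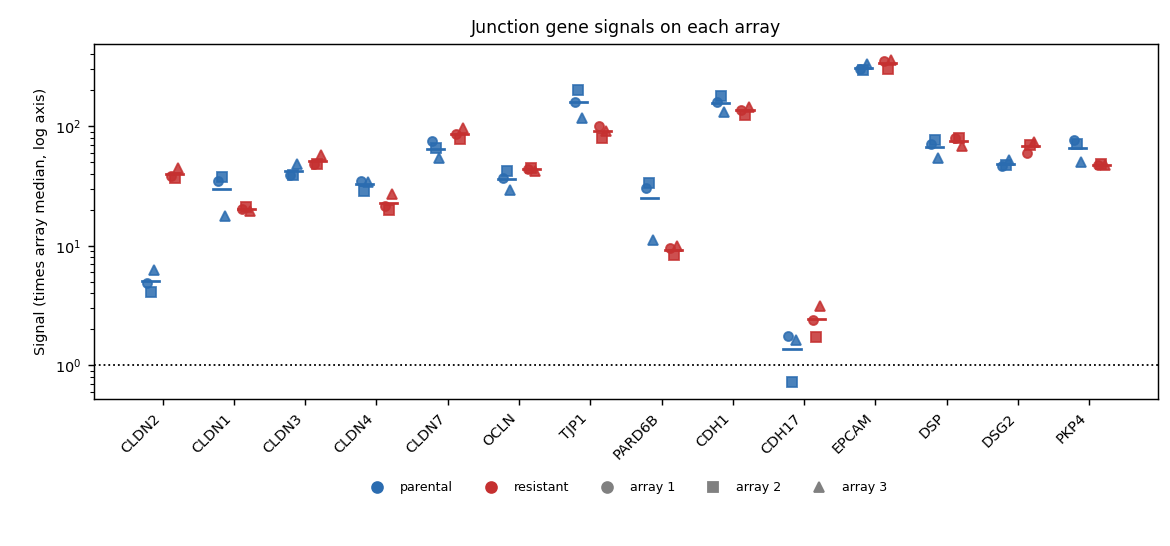
Signal on each array, as multiples of the array median on a log axis, for selected junction genes, with blue for the 3 parental and red for the 3 resistant arrays, a symbol shape for each array number, a bar for the group mean and a dotted line at the array median. The levels of different genes are not comparable. The CLDN2 points of the groups lie far apart (4.11 to 6.30 against 36.8 to 45.1), while in PARD6B parental array 3 (11.1) lies close to the resistant arrays (8.31 to 9.90).

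TJP1 encodes ZO-1, the scaffold that links claudins and occludin to the actin cytoskeleton. It read 160.1, 199.4 and 118.1 on the parental and 100.5, 79.9 and 90.97 on the resistant arrays. The groups did not overlap, although parental array 3 lay nearest to the resistant arrays. The decrease was -0.79 ± 0.18, a level 1.73-fold lower in resistant cells (limma, adjusted p = 0.0236). A second tested probe set of TJP1 was also lower, by -0.92 ± 0.22 (adjusted p = 0.0281). Without parental array 3 the decrease was -0.99 (adjusted p = 0.000223), but the call was lost when parental array 1 or 2 or any single resistant array was left out, with adjusted p between 0.057 and 0.108.

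The promoter table (GRCh38.p14, RefSeq) gives 4 start sites for TJP1 on chromosome 15, with a GC content of 34.8% to 70.4% before them. The outermost window is shown because it alone among the 4 held an E-box, beside 2 GC boxes, in capitals. The other windows held 0, 1 and 3 GC boxes and no other match.
TJP1 outermost start, chr15:29969050-29969299, minus strand: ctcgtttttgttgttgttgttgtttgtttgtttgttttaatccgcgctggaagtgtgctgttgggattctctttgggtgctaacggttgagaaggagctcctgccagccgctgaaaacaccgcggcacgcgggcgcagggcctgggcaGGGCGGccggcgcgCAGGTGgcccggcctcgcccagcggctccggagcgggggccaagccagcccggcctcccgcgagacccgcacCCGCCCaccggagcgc

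None of the other 5 tested tight junction proteins passed, and their differences lay between -0.08 and 0.29. Occludin (OCLN), a tetraspan protein of the strands, read 36.9, 42.16 and 29.1 on the parental and 43.7, 44.7 and 42.19 on the resistant arrays. The groups touched without overlapping, and the difference was 0.29 ± 0.15. MARVELD3, a relative of occludin, differed by 0.24 ± 0.17 without overlap, and 1 of its 3 tested probe sets was higher in resistant cells by 0.98 ± 0.26 (limma, adjusted p = 0.0439), though not the brightest. Tricellulin (MARVELD2), cingulin (CGN) and ZO-3 (TJP3) differed by 0.12, -0.08 and 0.07. The junctional adhesion molecules JAM2 and JAM3 were below the array median on average.

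PARD6B belongs to the PAR complex, which with atypical protein kinase C marks the apical membrane and promotes tight junction assembly. It read 30.4, 33.7 and 11.1 on the parental and 9.64, 8.31 and 9.90 on the resistant arrays. Parental arrays 1 and 2 were high, and parental array 3 was only slightly above the resistant arrays. The decrease was -1.28 ± 0.36, or 2.43-fold, with a 95% interval of -2.07 to -0.49 (limma, adjusted p = 0.049). Its 2 other tested probe sets differed by -0.75 and -1.25 without passing the test. Leaving out parental array 3 gave a decrease of -1.79, or 3.46-fold (adjusted p = 1.08e-05), whereas leaving out parental array 1 or 2 or any single resistant array ended the call, with adjusted p between 0.126 and 0.162.

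The other polarity genes had negative differences that did not pass. Crumbs 3 (CRB3), the apical polarity protein of epithelia, read 10.8, 8.62 and 8.15 on the parental and 4.99, 7.79 and 6.52 on the resistant arrays. Its groups did not overlap, and the difference was -0.53 ± 0.20 (limma, adjusted p = 0.13). PARD3, the scaffold of the PAR complex, differed by -0.14 ± 0.17.

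Only 4 of the 21 cadherins were bright enough to be tested, and none passed. E-cadherin (CDH1), the cadherin of epithelial adherens junctions, read 158.9, 180.7 and 132.6 on the parental and 137.2, 125.3 and 144.5 on the resistant arrays. The groups overlapped, and the difference of -0.21 ± 0.13 had an interval of -0.49 to 0.08 (limma, adjusted p = 0.338). Without parental array 3 it was -0.32 (adjusted p = 0.0334). LI-cadherin (CDH17), an intestinal cadherin, read 1.77, 0.719 and 1.62 against 2.41, 1.74 and 3.15, and its difference of 0.89 ± 0.40 had an adjusted p of 0.186. CDH22 and CDH24 both differed by -0.51, with overlap.

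The remaining 17 cadherins lay below the array median on average. They included N-cadherin (CDH2), P-cadherin (CDH3), VE-cadherin (CDH5) and CDH11, and further CDH6, CDH7, CDH8, CDH9, CDH10, CDH12, CDH15, CDH16, CDH18, CDH19, CDH20, CDH23 and CDH26. The highest reading among them was 1.97, for CDH3 on resistant array 3, where parental array 3 read 1.64 and the other 4 arrays 0.132 to 0.656. N-cadherin read 0.559 to 1.02 over all arrays. No detection calls were used here, so readings this low cannot be told apart from background.

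Catenins, nectins and EPCAM stayed outside the test threshold as well, in 5 of 5 tested genes. EPCAM, the epithelial adhesion molecule that stabilises claudins, read 300.8, 297.7 and 329.9 on the parental and 349.6, 299.9 and 359.9 on the resistant arrays. The ranges overlapped, and the difference was 0.12 ± 0.10 (95% interval -0.10 to 0.34). Alpha-catenin (CTNNA1), which couples cadherins to actin, differed by -0.20 ± 0.12. NECTIN1, NECTIN2 and NECTIN3, adhesion proteins of the adherens junction, differed by -0.10, -0.21 and 0.36. By the brightest probe set, NECTIN3 alone of the 5 genes had groups that did not overlap, against 35.5% of all tested genes. Its other probe set differed by -0.06 with overlap. The other tested CTNNA1 probe sets differed by -0.12 with overlap, and by -0.26 and -0.54 without it, none past the test. CTNNA2, the neural alpha-catenin, was not bright enough to be tested.

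DSG2, the desmoglein found in simple epithelia such as the gut, was the desmosomal gene that rose. It read 46.1, 47.1 and 52.2 on the parental and 59.6, 69.5 and 74.2 on the resistant arrays. No resistant value fell within the parental range. The increase was 0.48 ± 0.13, or 1.39-fold, with a 95% interval of 1.14 to 1.70 (limma, adjusted p = 0.0436). A second probe set also rose, by 0.54 (adjusted p = 0.0472). The adjusted p lay close to the threshold: without parental array 3 it was 0.00625, and without parental array 1 or 2 or any single resistant array it was between 0.0837 and 0.173.

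DSG2 has 1 window in the promoter table, on chromosome 18 (GRCh38.p14, RefSeq), shown for contrast with the AT-richer CLDN2 windows. Its GC content was 75.2%, and it held 2 E-boxes and 2 GC boxes, in capitals.
DSG2, chr18:31497927-31498176, plus strand: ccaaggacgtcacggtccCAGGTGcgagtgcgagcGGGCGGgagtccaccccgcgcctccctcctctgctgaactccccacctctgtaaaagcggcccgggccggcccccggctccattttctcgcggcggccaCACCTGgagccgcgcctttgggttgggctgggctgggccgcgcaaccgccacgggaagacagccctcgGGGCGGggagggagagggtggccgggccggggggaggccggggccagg
Promoter windows were found for 22 of the 36 tested junction genes, 36 windows in all. A GC box was present in 27 of them (75%), against 42.6% of all 35114 windows, and an E-box in 10 (27.8%), against 17.5%. The TATA box and the CDX site were in 0 of the 36, against 10.7% and 8.93% of all windows. Several windows belong to 1 gene and can overlap. The 36 windows come from genes bright enough to be tested, while the comparison covers all windows, and the 2 sets were not matched for GC content. These shares are therefore a description only.

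Desmoplakin (DSP), which anchors keratin filaments to the desmosome, read 70.9, 77.0 and 53.8 on the parental and 79.7, 79.5 and 68.1 on the resistant arrays. The groups overlapped, with a difference of 0.19 ± 0.15 (95% interval -0.15 to 0.52). Desmocollin 2 (DSC2), plakoglobin (JUP) and plakophilin 3 (PKP3) differed by 0.25, 0.19 and 0.18, none of them past the test.

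Plakophilins 2 and 4 had negative differences that did not pass. PKP2 read 12, 14.46 and 14.51 on the parental and 10.1, 9.14 and 10.3 on the resistant arrays, a separation without overlap and a difference of -0.47 ± 0.15 (limma, adjusted p = 0.0815), although its other probe set differed by 0.51. PKP4, found at desmosomes and adherens junctions, read 76.6, 70.6 and 50 against 47.4, 48.8 and 47.2. The resistant arrays lay close together and just under parental array 3, and the difference was -0.44 ± 0.16 (adjusted p = 0.116), or -0.62 without that array (adjusted p = 0.00116). Members typical of stratified epithelia, DSC1, DSC3, DSG1, DSG3, DSG4 and PKP1, were all below the array median on average.

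More than 1 tested probe set was available for 20 junction genes. In 13 of them all probe sets differed in the same direction, and in 7 they did not (DSC2, MARVELD2, NECTIN3, OCLN, PARD3, PKP2 and PKP4). Of the 71 tested probe sets of junction genes, 4 were higher and 3 lower in resistant cells, where 10% of all 26563 tested probe sets were called in either direction. CLDN2 had a single probe set, so its increase was not checked by another one.

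**Figure D3:**
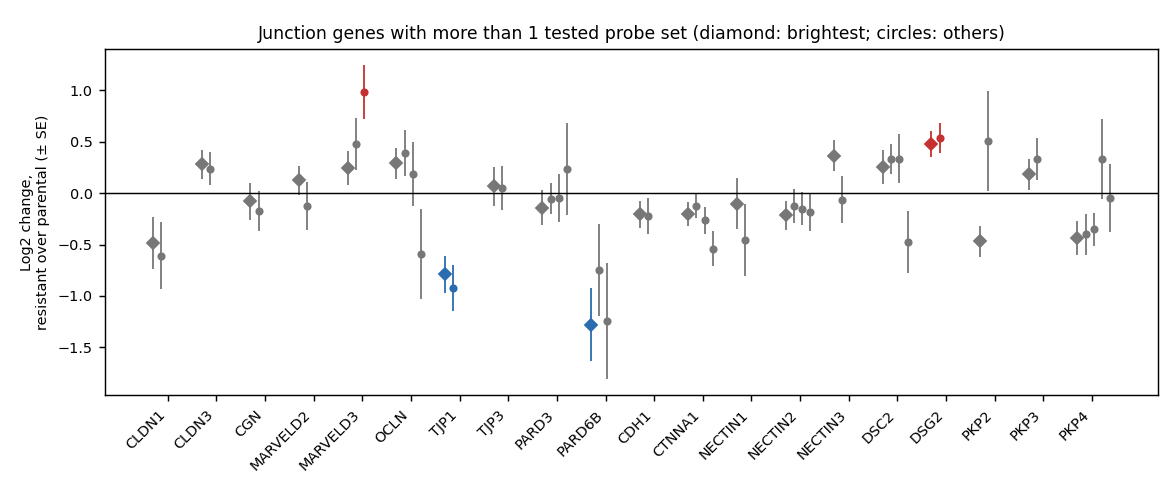
Log2 change (resistant over parental, ± SE from limma) of every tested probe set of the 20 junction genes that had more than 1, with diamonds for the brightest probe set of a gene, circles for the others, and red (higher) or blue (lower) for calls at an adjusted p below 0.05. Both probe sets of TJP1 lie below zero and both of DSG2 above it, whereas PKP2 has 1 probe set on each side (-0.47 and 0.51).

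The number of calls was highest without parental array 3. There 11 of the 36 junction genes (30.6%) passed, 3 higher (CLDN2, CLDN3 and DSG2) and 8 lower (CLDN1, CLDN4, CLDN15, TJP1, PARD6B, CDH1, CTNNA1 and PKP4). Over all tested genes the share rose alike, to 32.2%, so the greater number is not particular to junction genes. Among these, CLDN3 had an increase of 0.38 (adjusted p = 0.0326), CLDN4 a decrease of -0.49 (adjusted p = 0.0369) and CTNNA1 a decrease of -0.29 (adjusted p = 0.0372).

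**Figure D4:**
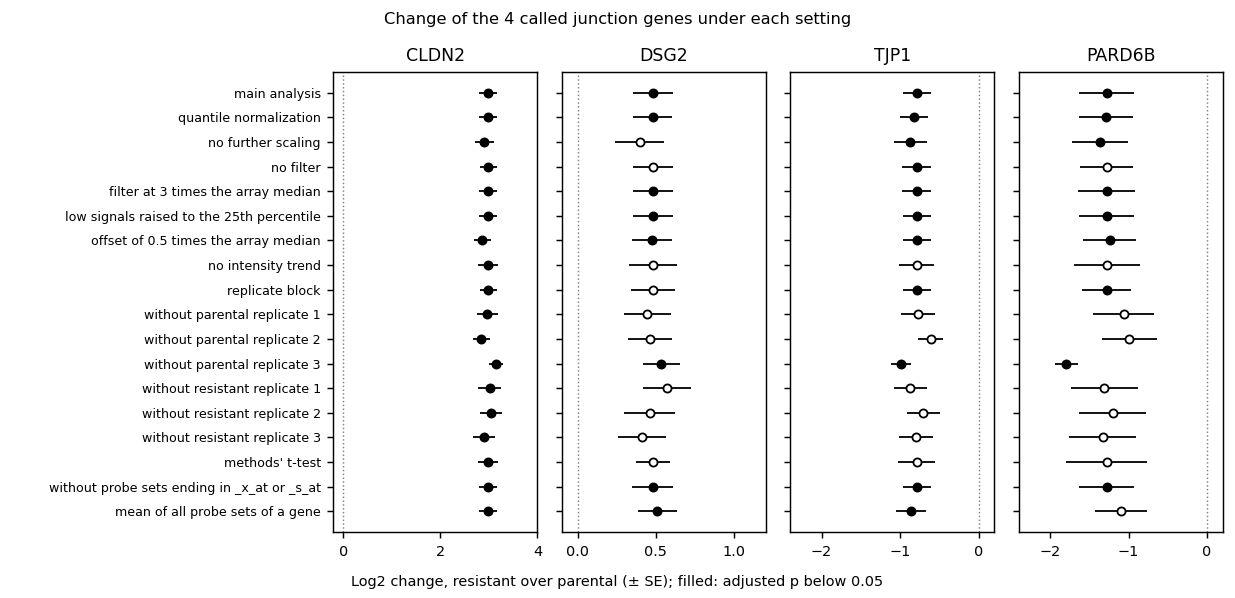
Log2 change (± SE) of CLDN2, DSG2, TJP1 and PARD6B under the main analysis and 17 alternative settings, with horizontal axes that differ between panels; filled points had an adjusted p below 0.05. The direction stayed the same for all 4 genes in all settings, while the call was lost in 0 settings for CLDN2, 10 for DSG2, 7 for TJP1 and 9 for PARD6B.

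Other genes of the same structures, listed by function, were tested to set the junction genes in context. Of 18 tested further tight junction genes, 1 was higher and 2 were lower (16.7% called, against 12.4% of all genes, median change -0.12). Paracingulin (CGNL1), a partner of ZO-1 at junctions, read 1.47, 1.71 and 0.513 on the parental and 3.87, 3.88 and 3.07 on the resistant arrays. All resistant values were above the parental ones, and the increase was 1.72 ± 0.43 (limma, adjusted p = 0.0329). Parental CGNL1 readings this low cannot be told apart from background, so the size of the increase is uncertain. PATJ, a scaffold of the Crumbs complex, fell by 0.99 ± 0.20 (adjusted p = 0.0165), and AMOTL2, an angiomotin that binds actin at junctions, fell by 1.01 ± 0.26 (adjusted p = 0.0362). With parental array 3 left out, 3 genes of this list were higher and 5 lower (44.4%, against 32.2% of all genes), and the changes were 1.18 for CGNL1, -1.20 for PATJ and -1.36 for AMOTL2. The CGNL1 call was lost when parental array 1 or any of the resistant arrays was omitted, the PATJ call without parental array 1 or 2 or resistant array 1 or 2, and the AMOTL2 call without any single array other than parental array 3.

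Among 22 tested further adherens junction genes, 1 was higher and 2 were lower (13.6% called, against 12.4% of all genes, median 0.01). PTPRM, a receptor phosphatase that binds cadherin complexes, read 0.604, 1.03 and 0.230 on the parental and 3.52, 3.49 and 4.56 on the resistant arrays. The parental readings were too low to be told apart from background. PTPRM passed the filter only through its resistant arrays, where it then had to differ, so it is counted as the higher gene of the list but its fold and p are not given. AJUBA, a LIM protein of adherens junctions, fell by 0.86 ± 0.21 (adjusted p = 0.0326), and DLG1, a basolateral polarity scaffold, fell by 0.63 ± 0.15 (adjusted p = 0.0299). Beta-catenin (CTNNB1) differed by 0.09 ± 0.13. Leaving out parental array 3 gave 3 higher and 3 lower genes (27.3%, against 32.2%), with changes of -1.12 for AJUBA and -0.75 for DLG1. The PTPRM call was lost without resistant array 3, and those of AJUBA and DLG1 without any single array other than parental array 3.

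Further desmosome and hemidesmosome genes had 2 higher and 1 lower among 8 tested (37.5% called, against 12.4% of all genes, median 0.18). PERP, a tetraspan protein needed for desmosome stability, read 60.2, 61.6 and 123.3 on the parental and 204.3, 205.3 and 216.9 on the resistant arrays. Parental array 3 was intermediate, and all resistant arrays were above it. The increase was 1.44 ± 0.24, or 2.71-fold (limma, adjusted p = 0.00553). Periplakin (PPL), a linker between desmosomes and keratin, read 37.4, 33.2 and 24.7 on the parental and 13.5, 15.1 and 15.2 on the resistant arrays. The groups were well apart, and PPL fell by 1.101 ± 0.17, or 2.14-fold (adjusted p = 0.00463). Both calls held when any single array was left out, but each was lost in 1 of the 17 alternative settings. Integrin alpha 6 (ITGA6), a hemidesmosome receptor, rose by 0.49 ± 0.11 (adjusted p = 0.0248), but the mean of its probe sets differed by 0.25 (adjusted p = 0.275), its difference was 0.0095 without probe sets of the types that can read several transcripts (adjusted p = 0.982), and the call was lost when parental array 1 or any of the resistant arrays was omitted. Without parental array 3, 3 genes were higher and 1 lower (50% of the list, against 32.2%), and the changes were 1.78 for PERP, -1.27 for PPL and 0.50 for ITGA6.

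**Figure D5:**
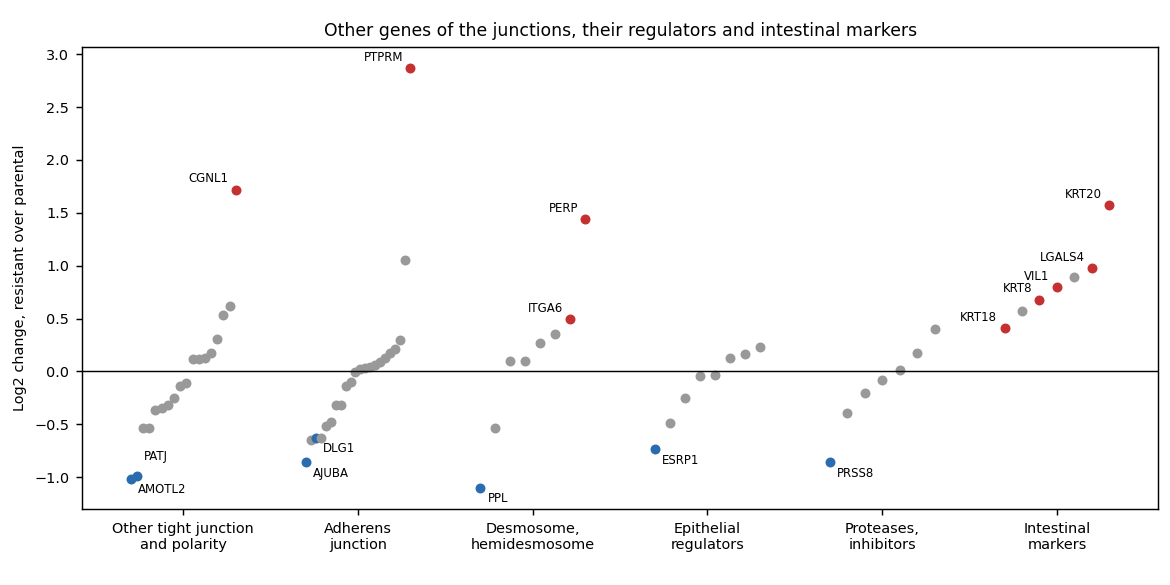
Log2 change (resistant over parental) of each tested gene in the lists of further junction genes, regulators, proteases and intestinal markers, with called genes named in red (higher) or blue (lower). CGNL1, PTPRM and PERP lie highest in their lists, and AMOTL2, AJUBA and PPL lowest. PTPRM passed the filter only through its resistant arrays, so the height of its point should not be read as a fold. The parental readings of CGNL1 cannot be told apart from background, so the height of its point is uncertain too.

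The repressors of epithelial junction genes SNAI1, SNAI2, ZEB1, ZEB2, TWIST1 and TWIST2 were on the array, but 0 of the 6 were bright enough to be tested. Their highest reading on any array was 0.892 times the array median, and their summed signal was 1.82 to 2.70 on the parental and 1.93 to 2.28 on the resistant arrays. Of 8 tested regulators that maintain epithelial gene expression, 0 were higher and 1 was lower (12.5%, against 12.4% of all genes): ESRP1, an epithelial splicing factor, fell by 0.74 ± 0.19 (limma, adjusted p = 0.0404), a call that was lost without any single array other than parental array 3. Without that array ESRP1 changed by -0.98, and 3 of the 8 were lower (37.5%, against 32.2%). KLF5, a zinc finger factor of the gut epithelium, differed by -0.05, or by -0.73 without probe sets of the types that can read several transcripts (adjusted p = 0.0954). ESRP2 was not analysed here. Among 7 proteases and inhibitors that act on EPCAM and claudins, PRSS8 (prostasin) alone passed (14.3%, against 12.4%) and fell by 0.86 ± 0.18 (adjusted p = 0.0169), a call lost without parental array 1 or resistant array 1 or 2. Without parental array 3 PRSS8 changed by -0.99, and 2 of the 7 were lower (28.6%, against 32.2%). SPINT2, an inhibitor of matriptase, and ADAM10, a sheddase of cadherins, differed by 0.01 and -0.21.

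The labelled cell type was checked with its markers. A list of 12 genes taken as intestinal epithelial markers was on the array, and 7 of them were tested. Of these, 5 were higher (KRT20 1.57, LGALS4 0.98, VIL1 0.80, KRT8 0.68 and KRT18 0.41), and 0 were lower. The share called was 71.4%, against 12.4% of all tested genes. KRT19 and GPA33 were tested and did not pass (adjusted p = 0.156 and 0.237). Without parental array 3, 6 of the 7 were higher (85.7%, against 32.2% of all genes). The changes were then 1.86 for KRT20, 0.64 for LGALS4, 0.75 for VIL1, 0.91 for KRT8 and 0.52 for KRT18. The summed signal of the 12 was 1221 to 1704 on the parental and 2120 to 2239 on the resistant arrays. Most of that sum is KRT18 and KRT8, so it mainly follows these 2 genes. Both were read with probe sets of the types that can read several transcripts. The calls of KRT8 and KRT18 were lost without any single array other than parental array 3, and that of LGALS4 when parental array 1 or any of the resistant arrays was omitted. Of 17 alternative settings, the VIL1 call was lost in 0, the KRT20 call in 1 and the LGALS4 call in 8. Of 16 settings available for them, the KRT8 call was lost in 9 and the KRT18 call in 11. CDX1, CDX2, FABP1, SI and ALPI, which mark differentiated intestinal cells, lay below the array median on average. In RNA from whole cultures, fewer cells of a type and less RNA per cell cannot be told apart, and the part of this shift in the junction gene values was not tested.

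Markers of other cell types gave 3 calls. The share called was 33.3% for fibroblast, 0% for endothelial, 33.3% for leukocyte and 50% for keratinocyte markers, against 12.4% of all tested genes. Each share rests on only 2 or 3 tested genes. Without parental array 3 these shares were the same, against 32.2% of all genes. Of 10 fibroblast markers, 3 were tested and LUM was called higher, but it read 0.198 to 0.352 on the parental arrays and passed the filter only through its resistant arrays (1.504 to 3.27), so no fold is given, and the call was lost without resistant array 1 or 2. The summed fibroblast signal was 6.94 to 7.85 on the parental and 10.5 to 11.2 on the resistant arrays. That sum includes the LUM readings, so its difference is not separate from LUM and carries the same limit. Of 7 endothelial markers, 2 were tested and 0 called. The summed signal of the 7 was 4.66 to 6.27 on the parental and 4.10 to 5.66 on the resistant arrays. Of 6 leukocyte markers, 3 were tested and LAPTM5 was lower by -0.91, or -1.12 without parental array 3. That call was lost without any single array other than parental array 3. LAPTM5 read 5.59, 4.21 and 3.10 on the parental and 2.34, 2.02 and 2.33 on the resistant arrays. The summed signal of the 6 leukocyte markers was 13.2 to 24.8 on the parental and 10.8 to 14.8 on the resistant arrays. The highest parental sum includes a CD14 reading of 14.8 on parental array 1. CD14 itself differed by -0.13 ± 0.33 and did not pass. Of 6 keratinocyte markers, 2 were tested and KRT10 was lower by -0.78, or -0.86 without parental array 3. KRT10 read 58.1, 60.8 and 50.2 on the parental and 33.8, 30.85 and 33.6 on the resistant arrays. The summed signal of the 6 keratinocyte markers was 52.8 to 62.7 on the parental and 32.7 to 36.4 on the resistant arrays. Most of that sum is KRT10, so its difference is not separate from KRT10 and says nothing of the other markers. The part of these markers in the junction gene values was not tested.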

How the data were processed

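The authors deposited linear signal intensities, 1 value for each probe set on each array, and their processing notes name MAS5 without a version. The scaling target is not given in the sources used here. Array medians were 10.6 to 12.8 intensity units. After removal of 62 control probe sets (54613 of 54675 kept), intensities were divided by the array median, as in the study's methods, and log2 values were taken (zeros became 0.05 first). The 26563 probe sets whose mean reached 1 times the array median were fitted with limma 3.58.1 in R 4.3.3 (lmFit, then eBayes with trend). Tests were two-sided and adjusted over all of these probe sets by Benjamini-Hochberg. No exact permutation test was used, since 3 arrays against 3 cannot reach a p below 0.10.

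Gene names came from the platform annotation, brought up to date by Entrez identifier with RefSeq (GRCh38.p14): 41091 probe sets had 1 symbol, 1801 several and 11721 none listed, and 41037 of the first kind matched RefSeq. Groups and replicate numbers came from the sample titles. Same-numbered samples did not deviate together (r = -0.02 in all 3 cases), so no pairing was used.

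The rule for the junction genes uses symbols only, but this group of genes, the further lists and the tests were all chosen with earlier results of these data known. Named were all called junction genes, the brightest of each class, and up to 3 called genes of each further list (otherwise its 2 brightest). CLDN1, CLDN3, CLDN4, CLDN15, OCLN, MARVELD3, CRB3, CDH17, PKP2, PKP4, CTNNB1 and ADAM10 got values after these were seen. Alternatives covered scaling, filters, low signals, the variance model, the replicate block, the methods' t-test, the probe set of a gene, and each array left out in turn.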

Additional observations from a re-analysis of the deposited data

How the results depend on the processing

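CLDN2 remained at least 2-fold higher in all 17 alternatives. The count of higher junction genes was 1 with no further scaling, no filter, no intensity trend, the replicate block and the methods' t-test, where DSG2 no longer passed, and 1 to 3 with single arrays left out. The count of lower genes was 0 without the intensity trend and with the methods' t-test, 1 with probe sets averaged per gene, and 0 to 8 with single arrays left out, and quantile normalization added CLDN4 for a count of 3. The count at least 2-fold lower was 0 without the trend, with the methods' t-test and with averaged probe sets, 0 to 2 with single arrays left out, and 1 without the filter, where CDH11 took the place of PARD6B. The replicate block, tried although same-numbered samples did not deviate together (r = -0.02), left the count of lower genes at 2 and of those at least 2-fold lower at 1. Small changes turned sign in some settings. With no further scaling the change was -0.0635 for CLDN12, -0.0153 for TJP3 and -0.0703 for SPINT2. Quantile normalization gave -0.0191 for EPCAM and -0.0731 for SPINT2, and averaged probe sets gave -0.000281 for MARVELD2 and 0.0182 for PKP2. With single arrays left out, the change ranged from -0.179 to 0.216 for CLDN12, -0.442 to 0.0591 for CLDN23, -0.172 to 0.051 for CGN, -0.0498 to 0.186 for TJP3, -0.22 to 0.00577 for PARD3, -0.273 to 0.087 for NECTIN1, -0.214 to 0.0643 for KLF5 and -0.0226 to 0.0577 for SPINT2. None of these values passed the test in limma. The cause of these shifts was not tested. Low signal over background limits the 35 untested genes, for which no change is given.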

Other observations

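The tested genes next to the called junction genes on their chromosomes were read after the results were known. They were the 3 on each side in the order of the RefSeq table of GRCh38.p14. No limit was set on their distance. None of the 6 neighbours of CLDN2 passed an adjusted p of 0.05 in limma (changes of -0.51 to 0.46), nor did those of TJP1 (-0.44 to 0.75) or PARD6B (-0.45 to 0.05). Among the 6 neighbours of DSG2 all differences were positive (0.14 or more) and 2 passed, where 12.4% of all tested genes did. They included DSG2-AS1, a transcript named for DSG2 itself, which did not pass. TAF4B, a subunit of a general transcription factor, differed by 0.78 ± 0.17 (limma, adjusted p = 0.0219). TTR, which encodes the plasma carrier transthyretin, was the other. Its SE was 0.59, and its parental level was not checked against background, so its fold and p are not given. Readings of these 2 genes on single arrays are not given here, and a change shared by the region was not tested. The adjacent desmosomal gene DSC2 differed by 0.25 ± 0.17 and did not pass.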
